A study of Drosophila melanogaster with 4 samples.

Results

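Cytochromes P450 of family 4 were followed in the heads of male Drosophila given ethosuximide, an antiepileptic drug known to block T-type calcium channels. The 6 genes Cyp4e2, Cyp4p1, Cyp4ac1, Cyp4d21, Cyp4c3 and Cyp4aa1 were taken from 6793 genes that the array's annotation names. They stand for 8 of the 13824 cDNA clones, each clone being the mean of 2 neighbouring spots with a value on at least 1 array. The genes were selected by family and on having a value on at least 1 array, and were picked with their ratios already known. The ratios below are therefore a description, and the p-values of the fit only place these genes among all clones. Another 8 family 4 genes also had values and are given after them.

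Drug-fed flies and flies on normal food were both Oregon-R wild-type males, unmated, 10 to 11 days old when feeding began. For 3 days the first had 3.48 mg/ml of the drug in their food and the second had food without it, at 30 flies per vial. RNA came from pooled whole heads, so a lower share of the cells that make a transcript and less of it per cell cannot be told apart. Each of 4 spotted cDNA arrays of 2 colours set 1 drug-fed pool against 1 pool on normal food, with the drug sample in Cy5 on arrays 1 and 2 and in Cy3 on arrays 3 and 4. Array values are ratios only, and no level of any transcript can be read from them.

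P450 enzymes are haem monooxygenases that insert oxygen into fatty acids, hormones and foreign compounds, using electrons passed on by P450 reductase and cytochrome b5. In vertebrates many family 4 enzymes hydroxylate the far end of fatty acids. In Drosophila the family includes Cyp4g1, an oenocyte enzyme of cuticular hydrocarbon synthesis, and Cyp4d21, also called sxe1, which is known from the fat body of the male head.

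The arrays differed in how much they measured. Values remained for 5095, 3169, 1101 and 812 clones on arrays 1 to 4, and 980 clones (features) were measured on at least 3 arrays and tested. Of the photoreceptor markers on the array, 6 of 7 genes had a value, as did both neuronal marker genes. The deposited values were read as log2 of Cy5 over Cy3, and arrays 3 and 4 were multiplied by -1 so that a positive ratio means more in drug-fed flies. The numerator is not stated, and this direction is called likely only because the labels list Cy5 first on each array and GenePix ratios by convention put it on top. With Cy3 as numerator every sign below would turn. Each array was then centred on the median of its tested features, which lay at 0.74, 0.16, -0.24 and -0.63 on arrays 1 to 4 after turning. A ratio below is therefore relative to the median tested feature of that array, which need not be the median of all its clones. Over tested features the centred ratios resembled each other more where the dyes ran the same way, with r across features of 0.53 for arrays 1 and 2 and 0.42 for arrays 3 and 4, against 0.05 to 0.24 between orientations. The one-class fit treats the 4 arrays as independent and leaves this out, and with a dye coefficient 28 features passed in place of 14.

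Cyp4e2 stood highest among the family 4 genes and Cyp4p1 followed, and both were higher in drug-fed flies on every array that measured them. Cyp4ac1 and Cyp4d21 had means near that of the median tested feature, with arrays on both sides of 0. Cyp4c3 and Cyp4aa1 were lower in drug-fed flies on the 1 array that measured them. In limma's fit over all 980 features, Cyp4e2 and Cyp4p1, 2 of the 4 family 4 clones tested, were higher with an adjusted p under 0.05, as were 1.22% of all features. None of the 4 was lower, as were 0.204% of all features. Because these genes were picked with such values known, nothing is read from that count.

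**Figure D1:**
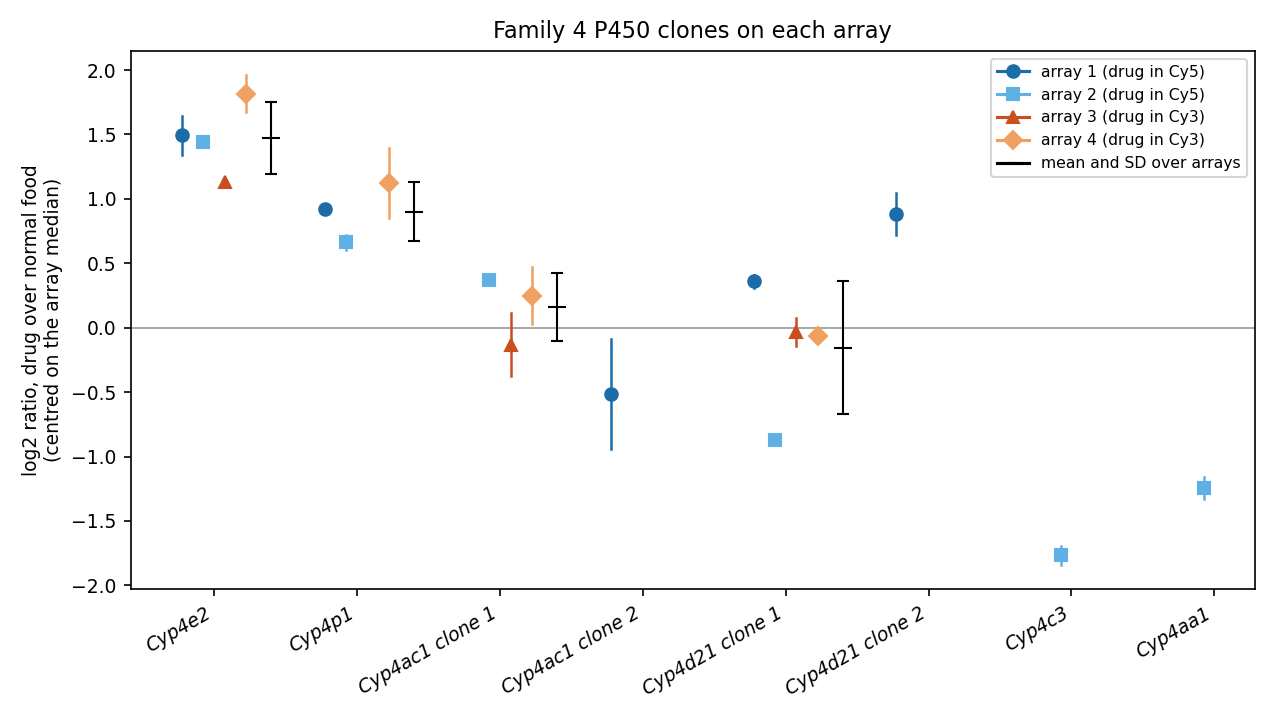
Centred log2 ratio of drug over normal food (vertical axis) for the 8 clones of the 6 genes (horizontal axis). Each point is the clone's value on 1 array, the line through it joins its 2 spots, and black bars give the mean ± SD over arrays for clones measured on at least 3. All 4 Cyp4e2 points lie between 1.13 and 1.82, above every point of the other clones, the nearest of which is Cyp4p1 at 1.12 on array 4.

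Cyp4e2 was measured on all 4 arrays by 1 of its 2 clones. The deposited values of its spots were 2.08 and 2.38 on array 1 and 1.57 and 1.64 on array 2, where drug-fed flies carried Cy5. With the dyes swapped they were -0.89 and -0.89 on array 3 and -1.33 and -1.04 on array 4. The deposited sign of this gene thus turned with the dye of the drug sample on every array.

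After turning and centring, Cyp4e2 had ratios of 1.49, 1.44, 1.13 and 1.82 on arrays 1 to 4. Their mean was 1.47 ± 0.28 (SD, n = 4), or 2.77-fold if the log base is 2, with a 95% interval from limma of 1.16 to 1.78. Both dye orientations gave a mean of 1.47. Its place within each array needs neither the centring nor the log base: it lay above 99.7%, 99.8%, 95.8% and 98.4% of the clones with a value on arrays 1 to 4. Over all tested features, 13.1% of the 366 measured on 4 arrays were above 0 on each.

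The adjusted p of Cyp4e2 in limma's fit was 0.000797, and in mean ratio it ranked 5 among the 980 features. Without centring its mean was 1.48 ± 0.58 (SD, n = 4) and its adjusted p 0.00061, one of 5 higher features (0.51% of all). In that fit limma gave every feature the same variance, so the gene's own spread did not enter its p. With each feature's own variance in place of limma's moderated one, the adjusted p was 0.229, in a test that 0.0% of all features passed and in which 105 had an unadjusted p under 0.05. If the authors had already put the drug on top in every column, the mean of Cyp4e2 would be -0.00275 ± 1.72 (SD, n = 4), since 2 arrays would then oppose the other 2.

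Cyp4p1 was measured by 1 of its 2 clones, on arrays 1, 2 and 4. Its ratios were 0.92, 0.66 and 1.12, with a mean of 0.90 ± 0.23 (SD, n = 3), or 1.87-fold. The 2 spots on array 4 were 0.54 apart, where the median pair of spots on that array was 0.13 apart, so that value is the least precise of the 3. It is also the only 1 of the 3 with the drug sample in Cy3. Over all tested features, 15.4% were above 0 on each array that measured them. The clone lay above 98.1%, 98.7% and 93.6% of the clones on these arrays.

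The adjusted p of Cyp4p1 in limma's fit was 0.0303, and its mean ranked 7 among the 980. The call ended without array 1 (limma adjusted p = 0.442) or array 4 (0.178) and stayed without array 2 (0.00483). In the fit without array 2 limma gave every feature the same variance. Each of these fits had lost 1 of the clone's 3 arrays. The mean stayed between 0.79 and 1.02 whichever array was left out. The call also ended without centring, at 0.99 ± 0.60 (SD, n = 3, limma adjusted p = 0.611), and with each feature's own variance (0.335). Under that other reading of the columns the mean would be 0.15 ± 1.11 (SD, n = 3).

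**Figure D2:**
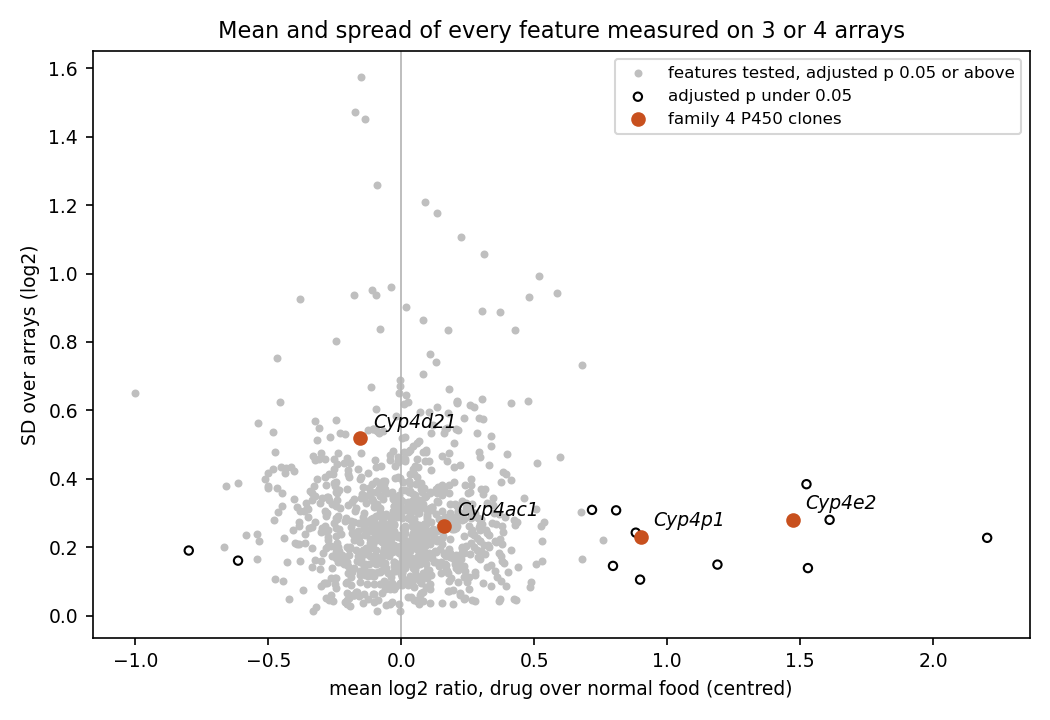
Mean centred log2 ratio of drug over normal food (horizontal axis) against its SD over arrays (vertical axis) for the 980 features measured on 3 or 4 arrays. Open circles mark features with an adjusted p under 0.05 and filled orange points the 4 tested family 4 clones. Cyp4e2 at 1.47 and Cyp4p1 at 0.90 lie right of nearly all features, while Cyp4ac1 at 0.16 lies in the main cloud. Cyp4d21 at -0.15 is near 0 in mean, but its SD of 0.52 is above the 0.48 that most features stayed under.

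Cyp4ac1 had 2 clones with values, which never shared an array. The first was measured on arrays 2, 3 and 4, with ratios of 0.37, -0.13 and 0.25 and a mean of 0.16 ± 0.26 (SD, n = 3). Its adjusted p in limma's fit was 0.707, and the 95% interval ran from -0.20 to 0.52, on both sides of 0. Without centring the sign of its mean turned, to -0.08 ± 0.52 (SD, n = 3). The second clone had a value on array 1 alone, -0.51, from spots 0.85 apart, where the median pair on that array was 0.24 apart. Without centring its sign turned too, to 0.23. In either case it lay above 11.5% of the clones with a value on that array.

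Cyp4d21 is the family 4 gene with a known male role, in courtship and in the head fat body. Its first clone had ratios of 0.36, -0.87, -0.03 and -0.07 on arrays 1 to 4, with a mean of -0.15 ± 0.52 (SD, n = 4). Array 2 alone lay clearly below 0, and without it the mean turned to 0.09. The adjusted p in limma's fit was 0.803, with a 95% interval from -0.57 to 0.26. Its spots on array 2 were 0.06 apart, so the low value of that array was shared by both spots. The SD of 0.52 compares with a median SD of 0.25 over all tested features, most of which stayed under 0.48. The second clone had a value on array 1 alone and was at 0.88, above 97.4% of the 2843 clones measured on that array alone. The first clone was at 0.36 there, so on that array the clones differed in size but not in sign. On the other arrays the first clone lay below 0, and the second had no value.

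These genes differed from each other in mean and in spread. On the same array, where centring has no effect, Cyp4e2 exceeded Cyp4d21 by 1.13, 2.32, 1.17 and 1.88 on arrays 1 to 4, a mean of 1.62 ± 0.58 (SD, n = 4). It exceeded Cyp4p1 by 0.58, 0.78 and 0.69 on the 3 arrays they shared, the steadiest difference of the 6 pairs compared. Cyp4p1 exceeded Cyp4d21 by 0.56, 1.54 and 1.19 on arrays 1, 2 and 4. Cyp4ac1 and Cyp4d21 had no fixed order, with differences of 1.24, -0.10 and 0.32 on arrays 2, 3 and 4. The exact two-sided sign-flip test over arrays cannot give a p under 0.125 with 4 shared arrays or under 0.25 with 3, so it could call no order among these genes.

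Cyp4c3 and Cyp4aa1 had 1 clone each, and both were measured on array 2 alone. Cyp4c3 was at -1.77, from deposited values of -1.53 and -1.68 in its 2 spots. Cyp4aa1 was at -1.24, from deposited values of -0.997 and -1.17. These genes have no replicate and no test, and with the drug sample in Cy5 only, drug and dye cannot be told apart for them.

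The clones measured on array 2 alone, 837 in all, lay low as a set, with a median of -0.41 and 90% of them between -1.67 and 0.31. On the same array the tested features lay mostly between -0.55 and 0.49. Among the 837, 3.46% were lower than Cyp4c3 and 12.5% lower than Cyp4aa1. Against all 3169 clones of the array, 1.36% and 5.02% were lower. Cyp4g15, known from the nervous system, was likewise measured on array 2 alone, at -0.98, with 18.9% of the 837 below it.

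The rest of the family was thinly covered. The array held 40 clones of 20 family 4 genes, and 16 clones of 14 genes had a value. That is 40.0% of the family's clones, against 45.9% of all clones on the array. At least 3 arrays measured 10.0% of the family's clones, against 7.09% of all clones. Values were had from 10, 9, 3 and 5 family 4 clones on arrays 1 to 4. The clones of Cyp4d1, Cyp4d8, Cyp4d20, Cyp4p2, Cyp4p3 and Cyp4s3 had none, nor had the second clones of Cyp4e2 and Cyp4p1.

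**Figure D3:**
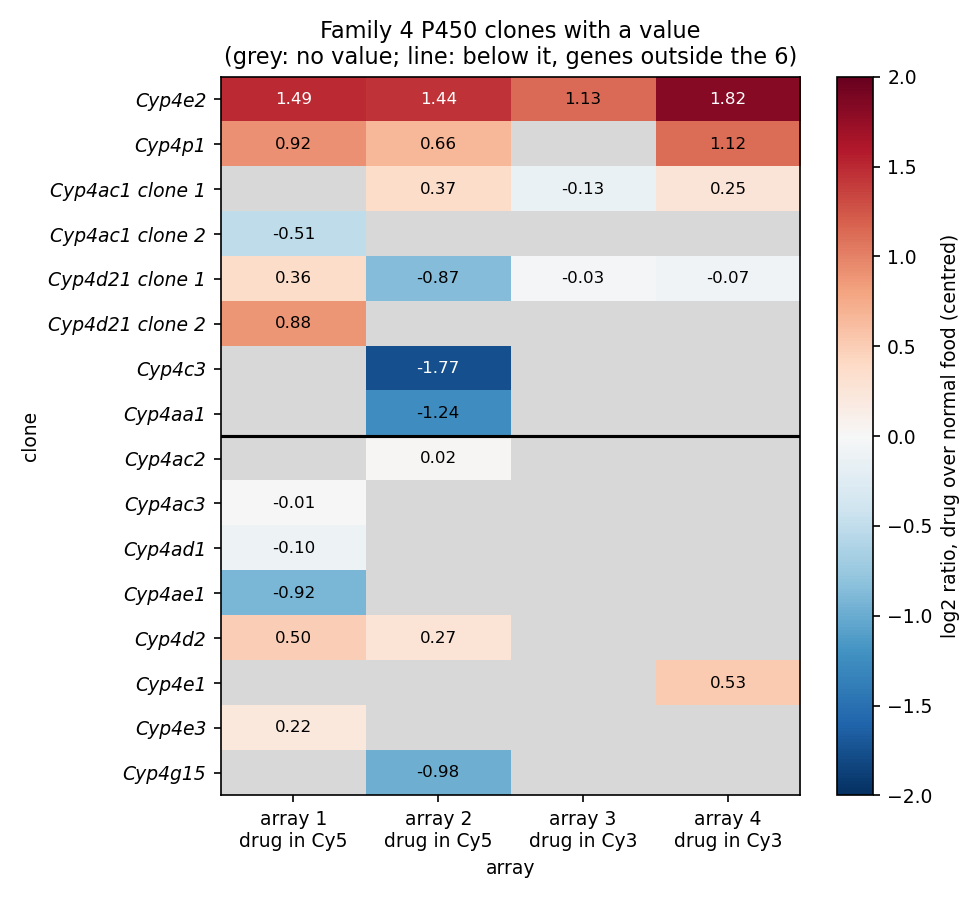
Centred log2 ratio of drug over normal food, printed and coloured, for the 16 family 4 clones with a value (rows) on arrays 1 to 4 (columns), with grey cells where a clone had none. Only Cyp4e2 and the first clone of Cyp4d21 fill all 4 arrays, and the genes below the line have values on 1 array, or 2 for Cyp4d2.

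Among the 8 family 4 genes outside the 6, Cyp4d2 was measured on 2 arrays, at 0.50 and 0.27 on arrays 1 and 2. Both had the drug sample in Cy5. The other 7 had 1 array each, so for none of the 8 can drug and dye be told apart. On array 1, Cyp4ac3 was at -0.01, Cyp4ad1 at -0.10 and Cyp4ae1 at -0.92. Cyp4ac2 was at 0.02 on array 2, and Cyp4e1 at 0.53 on array 4. Without centring the signs of Cyp4ac3, Cyp4ad1 and Cyp4e1 turned, to 0.73, 0.64 and -0.10.

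Several of these genes sit in tandem. In RefSeq's gene order for Release 6, Cyp4e2 lies between Cyp4ad1 and Cyp4e1, Cyp4p1 between Cyp4p2 and Cyp4p3, and Cyp4ac1 beside Cyp4ac2. Some neighbours were measured on the same array as a gene of the 6. On array 4 Cyp4e1 had 0.53 against 1.82 for Cyp4e2, on array 1 Cyp4ad1 had -0.10 against 1.49 for Cyp4e2, and on array 2 Cyp4ac2 had 0.02 against 0.37 for Cyp4ac1. On array 1 Cyp4ac3 had -0.01 against -0.51 for the second Cyp4ac1 clone. The differences beside Cyp4ac1 are smaller than the 0.94 and 1.18 that 95% of spot pairs stayed within on arrays 2 and 1, and those beside Cyp4e2 are larger than the 0.62 and 1.18 of arrays 4 and 1. These limits come from spots of the same clone and leave out variation between clones, so whether the neighbours differ was not tested. A spotted cDNA can bind RNA of a near copy, and how far it did so here was not tested.

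Of other P450 families, 26 of 52 genes on the array had a value and 3 were measured on at least 3 arrays. Of these, 1 was higher and 1 lower in limma's fit, as were 1.22% and 0.204% of all features. The median of the 3 mean ratios was 0.08, against 0.0037 over all features. Cyp6a20 was at 0.81 ± 0.31 (SD, n = 4, adjusted p = 0.0296), Cyp28d1 at 0.08 ± 0.21 (SD, n = 4, adjusted p = 0.86) and Cyp313a1 at -0.80 ± 0.19 (SD, n = 4, adjusted p = 0.0151). Without centring none of the 3 passed. The cytochrome b5-related gene Cyt-b5-r was at 0.29 ± 0.17 (SD, n = 4, adjusted p = 0.382). P450 reductase and cytochrome b5 themselves were not tested.

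In lists near the family's known chemistry, 1 of 9 fatty acid genes on the array was tested, FASN1, a fatty acid synthase, at 0.40 ± 0.09 (SD, n = 3, adjusted p = 0.326). Of 4 regulators of the response to foreign compounds 1 was tested, maf-S, at 0.16 ± 0.28 (SD, n = 3, adjusted p = 0.725). Of 3 glutathione transferases tested, which attach glutathione to oxidised products, GstD1 was higher at 0.80 ± 0.15 (SD, n = 3, adjusted p = 0.0389), GstT4 was at 0.04 and GstE12 at -0.25. GstD1 did not pass without centring. None of the 12 genes of UDP-glycosyltransferases on the array was measured on 3 arrays.

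Of 4 fat body marker genes on the array 2 had a value, and apolpp, the lipophorin gene, was the 1 tested, with clones at 0.12 ± 0.25 (SD, n = 4) and 0.07 ± 0.32 (SD, n = 3). Of oenocyte markers 2 of 2 had a value and none was tested. Of muscle markers 3 were tested, Act88F at -0.43 ± 0.43 (SD, n = 4), the myosin light chain gene Mlc2 at -0.21 ± 0.15 (SD, n = 3) and Act79B at -0.13 ± 0.33 (SD, n = 3). Photoreceptor markers had the lowest median of the lists with tested members, -0.32 over 4 genes. Of these chp was at -0.45 ± 0.36 (SD, n = 4, adjusted p = 0.282), inaD at -0.35 ± 0.26 (SD, n = 3) and inaC at -0.29 ± 0.10 (SD, n = 3), while the arrestin gene Arr1 was at 0.26 ± 0.28 (SD, n = 4). The gut marker Amyrel had 0.19, -1.17 and 1.24 on arrays 1 to 3, with a mean of 0.09 ± 1.21 (SD, n = 3). The male reproductive tract marker ocn was at 0.44 ± 0.27 (SD, n = 3). No marker in these lists passed limma's test, and the part of any cell type in the ratios of Cyp4e2 and Cyp4p1 was not tested.

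The genes whose ratios over the 4 arrays were most like those of Cyp4e2 were Jheh2, Cyp6a20 and CG4239, among 183 other named clones measured on every array. Jheh2, a juvenile hormone epoxide hydrolase, had 1.93, 1.63, 1.01 and 1.52 on arrays 1 to 4, a root-mean-square difference of 0.29 from Cyp4e2. That of Cyp6a20 was 0.73 and that of CG4239 0.95, against a median of 1.48 over the 183. For Cyp4d21 the nearest were Pect, CG14591 and CG3088, at 0.23, 0.32 and 0.32, against a median of 0.56. Likeness here means nearby ratios on 4 arrays and nothing about function.

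The mean ratios under each setting kept Cyp4e2 above Cyp4p1, and Cyp4p1 above Cyp4ac1 and Cyp4d21, in every setting that read the columns as Cy5 over Cy3 and tested all of the genes concerned. The unmoderated test cannot move a mean, and requiring both spots moved none. A dye term cannot move the mean of a clone measured on all 4 arrays. These settings therefore add little to that order. With the columns taken as already turned and centred, the 4 means lay between -0.10 for Cyp4d21 and 0.15 for Cyp4p1, and none passed limma's test (0.0% of all features did, and 86 features had an unadjusted p under 0.05). The contrast within the family therefore depends on the reading of the columns.

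**Figure D4:**
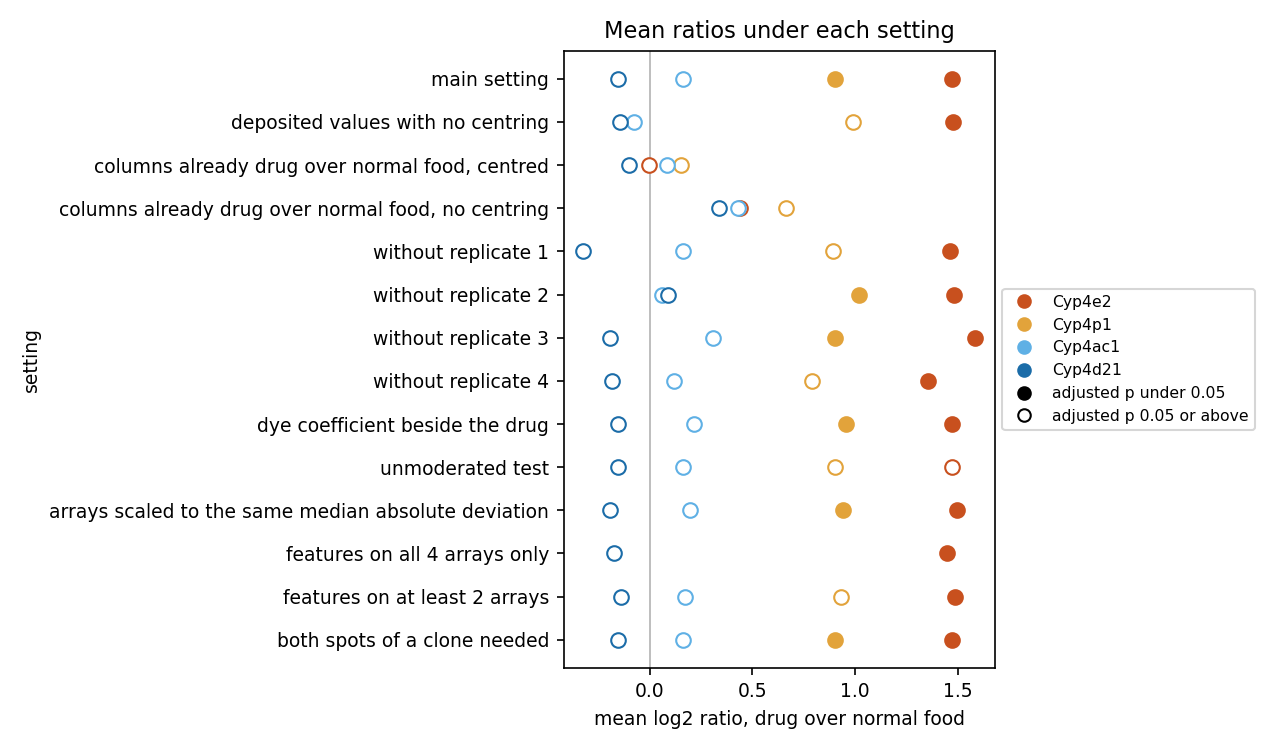
Mean log2 ratio of drug over normal food (horizontal axis) of the 4 tested family 4 genes under each processing setting (vertical axis), filled where the adjusted p was under 0.05. Cyp4e2 lies between 1.36 and 1.58 in every setting except the 2 that take the columns as already turned, where it is at -0.00275 and 0.44.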

How the data were processed

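Slides were quantified in GenePix Pro 6.0 and ratios normalized in Acuity 4.0 by the authors, per the series' design text. That text keeps spots with signal over noise of 3 or more, a pixel regression R2 of 0.6 or more and fewer than 3% saturated pixels. The authors made the deposited values, read here as log2 ratios, by ratio normalization, per the labels. Neither base, numerator nor centring is stated. Not given in the sources used here is a genome build.

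The 27648 spots were averaged in neighbouring pairs into 13824 clones (7558 of 7558 named pairs shared a gene). A single gene symbol was given for 15116 spots, several for 102 and none for 12430, and 14894 spots matched RefSeq's Release 6 table by Entrez number. Clones with values on at least 3 arrays were fitted with limma 3.58.1 in R 4.3.3 (one-class, two-sided, Benjamini-Hochberg over 980 features, threshold 0.05), after turning arrays 3 and 4 and centring. The code was tried on simulated ratios with independent arrays, which does not check its p-values under the likeness of arrays by dye orientation. Intensities were not used here, and the number of arrays limits the precision. Centring was chosen because the deposited columns had medians of 0.74, 0.01, 0.18 and 0.59. In the fit without it limma gave every feature the same variance.

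The 6 genes, the lists and the centring were chosen with earlier results of these data known. The genes named are the 6, other family 4 genes with values, tested genes of the lists, and the 3 nearest clones to each gene measured on 4 arrays. Symbols of cyclophilins that begin with Cyp were left out of the P450 lists. Cyp4g15 was set beside the 2 genes of array 2 after its value was seen. The alternatives were no centring, the other reading of the columns, each array left out, a dye term, unmoderated variances, scaled arrays, 4 or at least 2 arrays per clone, and both spots needed. Whether the head pools came from separate cultures beyond their vials is not stated, so the spread between arrays may be partly technical.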

Additional observations from a re-analysis of the deposited data

Results flagged for a closer look

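Among 17 clones measured on 4 arrays and named here, 2 had 1 array far from the others, and neither is a family 4 gene. For independent arrays with normal spread the rule would flag about 1 in 20. Some of the 17 were picked for ratios like those of Cyp4e2 or Cyp4d21, and arrays of the same dye orientation resembled each other. That rate is therefore only a guide here. Cyp313a1 was at -0.51 on array 4, against -0.89, -0.89 and -0.90 on the others, a gap of 0.968 of its whole range. GstT4 was at -0.32 on array 4, against 0.14, 0.14 and 0.21, a gap of 0.862 of its range.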

How the results depend on the processing

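With the deposited values not centred, 5 features were higher and 0 lower, in place of 12 and 2. Cyp4p1 was then at 0.99 with no call, and Cyp4ac1 turned to -0.0753. With the columns taken as already turned, 0 were higher and 0 lower after centring and 32 and 0 without it. Cyp4e2 was then at -0.00275 and 0.44, Cyp4p1 at 0.15 and 0.66, Cyp4d21 turned to 0.34 without centring, and Cyp4e2 minus Cyp4d21 was 0.10. With a dye coefficient beside the drug 22 were higher and 6 lower, with clones on all 4 arrays only 7 and 6, and with scaled arrays 1 was lower. In the unmoderated test 0 passed, with 105 features at an unadjusted p under 0.05, so that Cyp4e2 at 1.47 and Cyp4p1 at 0.90 lost their calls. With clones on at least 2 arrays Cyp4p1, at 0.93, lost its call too. Leaving out 1 array gave 5 to 19 higher and 0 to 4 lower features, 1.36 to 1.58 for Cyp4e2 and 0.79 to 1.02 for Cyp4p1. The 19 and 4 came without array 2. In that fit, and in the one with 32 higher, limma gave every feature the same variance. When 1 array was left out, the other members moved as well. Cyp4ac1 then lay between 0.06 and 0.31, Cyp4d21 between -0.32 and 0.09 (0.0867 without array 2), and Cyp4e2 minus Cyp4d21 between 1.39 and 1.79. Requiring both spots changed no count. The causes of these changes were not tested, other than fewer arrays or features where those were left out. Each array ratio already pairs 1 drug-fed pool with 1 pool on normal food, so the one-class fit is the paired analysis. Of the family's 16 measured clones 12 had values on fewer than 3 arrays.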

Other observations

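Cyp4e3, a further family 4 gene, had a value on array 1 alone, where its 2 spots were deposited at 4.52 and -2.60. Of 5072 pairs of spots on that array 1 pair, that of Cyp4e3, was so far apart (7.13, against a median of 0.24). Its mean of 0.22 after centring therefore stands for neither spot.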
